A study of Mus musculus with 6 samples.

Results

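The 39 genes described here encode the parts of a G-protein and cyclic AMP (cAMP) signalling chain: 6 receptors, 4 subunits of heterotrimeric G proteins, 9 RGS proteins, 4 adenylyl cyclases, 11 phosphodiesterases, and 5 subunits or anchors of protein kinase A. Chromatin accessibility at these genes was compared by ATAC-seq, in which the transposase Tn5 cuts open DNA and the reads over a region measure how open it is. A region belonged to a gene if it overlapped the gene body, extended by 25 kb on each side, and 58 of the 10016 regions in the authors' deposited table did so. These 58 regions lay at 25 of the 39 genes, and no region fell into the windows of several of the 39.

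The cells were mouse fetal liver cells immortalised with a retrovirus encoding the oncogene MLL-ENL, and they were grown with interleukin 3 at 10 ng/ml. The WT group carried floxed but undeleted alleles of Cebpa and Cebpb, the genes of 2 related myeloid transcription factors (C/EBPα, C/EBPβ). The dKO group had lost both genes (Cebpa KO, Cebpb KO) and expressed GFP from a vector, which the WT labels do not name, so that genotype and vector cannot be told apart. The dKO cells were subclones that survived repeated Cre treatment, and properties of a clone cannot be told apart from the deletion. Each group had 2 libraries of 50000 sorted cells, and whether these came from separate cultures was not stated. Another group, dKO cells expressing GFP and the rat CEBP/b isoform LAP*, was not analysed here. The listed region at Cebpa dropped from a level of 9.99 in WT to -0.15 in dKO, the lowest of the table. At Cebpb, 1 of the 2 regions also reached -0.15, and the other went from 8.60 to 3.37. Of 8 marker genes of myeloid progenitors, 6 had a listed region in their windows (10 regions higher and 2 lower in dKO), and none of the 6 marker genes of T, B and erythroid cells had one. For comparison, 34.9% of all protein-coding genes had a listed region, and 60.3% of all listed regions were higher in dKO. A gene without a listed region says nothing on its openness, because the table leaves out regions that did not pass the authors' threshold.

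All levels below are the authors' means per group, given as the log2 of normalised reads, and a change is the dKO level minus the WT level. The table has no value per library, so the means carry no replicate error and no test between the groups was possible here. The authors listed only regions that passed their threshold of 0.05 on the corrected p-value, so every listed region counts as changed by the authors' test. The low levels of the table fell on steps of whole reads, and intervals given with a change are 95% Clopper-Pearson intervals on the reads recovered from these steps. They cover counting error only, and PCR copies are not independent molecules.

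As background, a ligand-bound receptor makes a G protein exchange GDP for GTP, and the freed subunits then act on effectors. Adenylyl cyclases, which Gs stimulates and Gi inhibits, make cAMP from ATP. Cyclic AMP releases the catalytic subunits of protein kinase A from their regulatory subunits, phosphodiesterases degrade cAMP or cGMP, and RGS proteins end the signal by speeding up GTP hydrolysis. In myeloid cells, adenosine and prostaglandin E raise cAMP through Gs-coupled receptors and are known to dampen inflammatory responses.

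The sequences of 8 regions are shown because they hold a motif match close to their centre and lie at a start site or have the largest change at their gene. Each is the central 200 bp of the region on the forward strand of mm10, read from the GRCm38.p6 assembly. Capitals mark matches to 4 motifs on either strand: C/EBP (TTGCNNAA or TTACNNAA), AP-1 (TGACTCA), RUNX (AACCACA) and PU.1 (GAGGAAGT). A match is a description of the letters and not a binding site. Of the regions higher in dKO, those of Prkar2b, Ptger2, Pde10a, Pde7a and Pde5a hold the AP-1 letters. The C/EBP letters also occur in those of Prkar2b and Pde7a, and the RUNX letters in those of Pde5a and Adcy9.

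Prkar2b (chr12:32015424-32015623): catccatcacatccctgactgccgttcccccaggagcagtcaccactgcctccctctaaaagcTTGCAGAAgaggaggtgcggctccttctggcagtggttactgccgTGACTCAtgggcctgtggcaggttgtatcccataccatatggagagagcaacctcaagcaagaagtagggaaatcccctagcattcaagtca
Ptger2 (chr14:45005978-45006177): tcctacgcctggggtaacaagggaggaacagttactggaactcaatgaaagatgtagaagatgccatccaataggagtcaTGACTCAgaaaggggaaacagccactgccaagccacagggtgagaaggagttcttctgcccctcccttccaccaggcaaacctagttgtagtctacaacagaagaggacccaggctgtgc
Pde10a (chr17:8646413-8646612): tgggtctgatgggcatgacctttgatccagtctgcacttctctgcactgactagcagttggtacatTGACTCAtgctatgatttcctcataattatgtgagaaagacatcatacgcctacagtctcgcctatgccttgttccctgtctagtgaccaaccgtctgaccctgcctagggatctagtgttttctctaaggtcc
Pde7a (chr3:19201385-19201584): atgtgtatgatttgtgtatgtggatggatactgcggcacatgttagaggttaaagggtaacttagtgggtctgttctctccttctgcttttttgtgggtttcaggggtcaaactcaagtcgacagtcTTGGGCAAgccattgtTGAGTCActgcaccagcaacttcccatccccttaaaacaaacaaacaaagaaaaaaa
Pde5a (chr3:122718732-122718931): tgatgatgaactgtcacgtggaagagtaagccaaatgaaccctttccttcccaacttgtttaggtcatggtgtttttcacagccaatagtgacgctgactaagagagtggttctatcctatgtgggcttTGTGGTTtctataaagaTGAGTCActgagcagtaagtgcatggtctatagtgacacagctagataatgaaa
Adcy9 (chr16:4385477-4385676): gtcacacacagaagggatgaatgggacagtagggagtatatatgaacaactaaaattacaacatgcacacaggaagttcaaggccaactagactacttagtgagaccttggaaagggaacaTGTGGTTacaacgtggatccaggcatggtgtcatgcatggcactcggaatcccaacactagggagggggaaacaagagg

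Of the regions lower in dKO, one over an internal start site of Pde4d and one in an intron of Prkar1b hold the C/EBP letters.

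Pde4d (chr13:109902851-109903050): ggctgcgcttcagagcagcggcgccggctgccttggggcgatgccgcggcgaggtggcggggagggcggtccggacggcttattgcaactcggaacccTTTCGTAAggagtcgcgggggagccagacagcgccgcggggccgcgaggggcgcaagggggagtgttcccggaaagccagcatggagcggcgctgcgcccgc
Prkar1b (chr5:139053154-139053353): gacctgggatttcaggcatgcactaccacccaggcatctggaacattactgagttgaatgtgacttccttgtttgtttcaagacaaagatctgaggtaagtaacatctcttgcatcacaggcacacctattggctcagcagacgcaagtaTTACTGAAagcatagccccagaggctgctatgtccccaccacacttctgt

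Most of the 58 regions were more open in dKO. Accessibility was higher at 44 regions and lower at 14, so that 75.9% were higher, against 60.3% of all listed regions. The median change was 1.20 at these genes and 0.98 over all listed regions. At least 2-fold higher were 33 regions (56.9%, against 49.6% of all listed regions), and at least 2-fold lower were 13 (22.4%, against 35.9%). The share of higher regions fell to 56.9% at these genes and 49.97% overall when the median change of all listed regions was subtracted. After this subtraction 10 regions were at least 2-fold higher and 14 at least 2-fold lower. The subtraction lowers the change of every listed region alike, which by itself moves counts at this size towards lower. The same counts over all listed regions are not given here, so these counts are no result about these genes. Regions of one gene are not independent, so these shares are descriptions without a test.

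**Figure D1:**
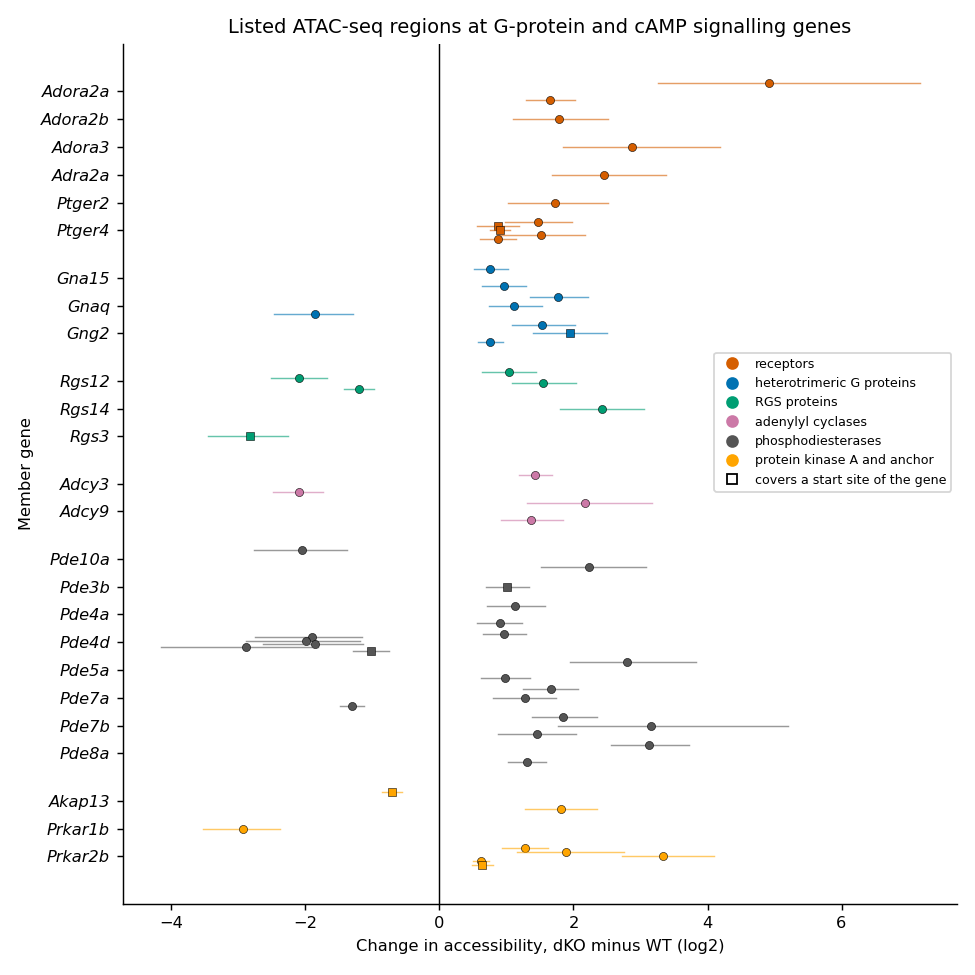
Change in accessibility (dKO minus WT, log2, horizontal axis) of the 58 listed regions at 25 genes (vertical axis), coloured by role. Points are differences of the authors' group means, squares cover an annotated start site of the gene, and bars are 95% counting intervals. All 11 receptor regions lie right of 0, whereas 5 of the 6 Pde4d regions lie left of it.

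Of the 25 genes, 16 had higher regions only, 2 had lower regions only and 7 had both. The window of 34.9% of all 21951 protein-coding genes held a listed region, against 25 of the 39 genes here (64.1%). The median gene body was 57.6 kb for the 39 genes and 17.4 kb for all protein-coding genes, and the part of length in the difference was not tested. Neither was the part of the choice of genes, which was made with earlier results of these data known. Among the 17 genes with 2 or more regions, 10 changed in one direction only (58.8%), against 69.0% of all such protein-coding genes. No region was listed for Rgs1, Rgs2, Rgs10, Rgs16, Rgs18, Rgs19, Pde1b, Pde2a, Pde4b, Adcy6, Adcy7, Prkaca, Prkacb and Gnai2.

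The receptors were the only role with regions of 1 direction: all 11 regions at the 6 receptor genes were higher in dKO, with changes from 0.87 to 4.92. Adora2a, which encodes a Gs-coupled adenosine receptor, had the largest change of the 58. Its region at chr10:75301984-75302337 went from 0.38 in WT, about 3 reads in both libraries together, to 5.30 in dKO, about 87 reads. The change of 4.92 had an interval of 3.26 to 7.16 and ranked 49 among the 6035 higher regions. It lay 14540 bp upstream of Adora2a in an intron of Specc1l, whose start site was closer (1283 bp), and it held none of the motifs searched. The other Adora2a region, in an intron of the gene itself (chr10:75326435-75326922), went from 5.22 to 6.87, a change of 1.65.

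Adora3 and Adora2b had 1 region each, whereas Adora1, the adenosine receptor gene outside the 39, had 2 regions, both lower in dKO. At Adora3, whose product couples to Gi, an intronic region (chr3:105877961-105878237) went from 1.89 to 4.76, a change of 2.87 with an interval of 1.84 to 4.18. The region also lies within the body of Tmigd3, whose start site is slightly closer (6984 bp against 7103 bp). At Adora2b, a further Gs-coupled receptor, an intronic region (chr11:62251083-62251388) went from 3.37 to 5.16. Adra2a, the Gi-coupled alpha-2A adrenergic receptor, had a region within its exon, over coding and untranslated sequence (chr19:54047396-54047706), which went from 2.79 to 5.24, a change of 2.45.

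Ptger4 and Ptger2, which encode the Gs-coupled prostaglandin E receptors, had higher regions only. Of the other prostaglandin E receptor genes, which are not among the 39, Ptger1 had 2 regions, both lower in dKO, and Ptger3 had no listed region. Ptger4 had 5 regions, all higher by 0.87 to 1.51 and all nearest to its own start sites. The strongest covered the annotated start of the gene (chr15:5243901-5244899) and went from 8.0 to 8.91. A region over the start of a noncoding Ptger4 transcript and a coding exon (chr15:5242233-5242795) went from 5.95 to 6.82. The largest change at Ptger4 was 1.51, at 5407 bp upstream (chr15:5249594-5249865), from 3.77 to 5.28. The regions with the lowest WT levels at Ptger4 (3.77 and 4.40) had the largest changes (1.51 and 1.47). This order is not particular to Ptger4, because regions of low level were listed only with large rises. Over all listed regions, the higher ones began at a dKO level of 5.2 for a WT level of 3.8, and at 8.5 for 8.0. Ptger2 had 1 region, downstream of the gene in an intron of Gm17173 (chr14:45005941-45006213), which went from 3.25 to 4.98.

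**Figure D2:**
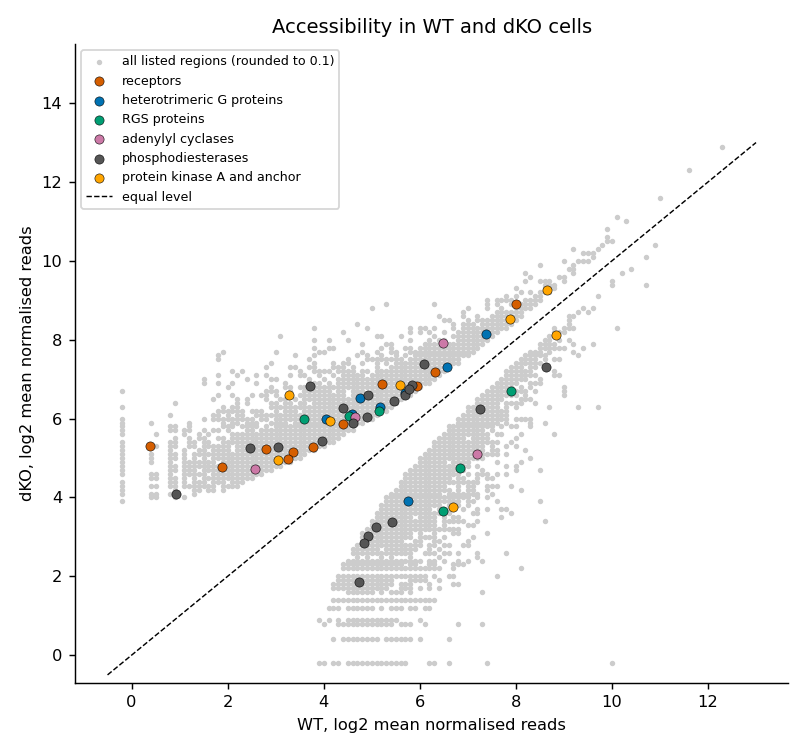
WT level (horizontal axis) against dKO level (vertical axis), both as log2 mean normalised reads, for all listed regions in grey (rounded to 0.1) and the 58 regions coloured by role. Points above the dashed line are higher in dKO. The empty band along the line holds the regions that the authors' threshold left out.

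Of the G-protein subunit genes, 3 had regions, of which 7 were higher and 1 was lower in dKO. Gng2, which encodes a gamma subunit, had a region over several of its start sites (chr14:19976855-19977379) that went from 4.04 to 5.99, a change of 1.95 with an interval of 1.40 to 2.49. Its other regions, in an intron and upstream, were higher by 1.53 and 0.76. Gna15, a Gq-class alpha subunit of blood cells, had 2 regions with changes of 0.76 and 0.97, the second of which overlapped an exon of the noncoding gene Gm47697 (chr10:81526787-81527105, from 5.69 to 6.66).

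Gnaq, the widely expressed alpha subunit that activates phospholipase C, went both ways. A region 21785 bp upstream of it was higher by 1.77 and an intronic region by 1.12. A further intronic region near the distal end of the gene (chr19:16366986-16367513) went from 5.76 to 3.90, a change of -1.86, and its nearest coding start site was that of Gna14. All 3 Gnaq regions held the C/EBP letters.

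Among the RGS genes, 3 of 9 had regions, 3 higher and 3 lower. Rgs3, a regulator of Gi and Gq signalling, had the largest fall at a start site among the 58 regions. This region (chr4:62699319-62699744) went from 6.49 in WT to 3.66 in dKO, a change of -2.83 with an interval of -3.46 to -2.25. It covered the starts of noncoding Rgs3 transcripts inside the gene, 139.5 kb downstream of the first start site. Rgs14, whose product also binds Gi alpha subunits, had 1 intronic region (chr13:55373125-55373437) that went from 3.58 to 6.00, a change of 2.42. At Rgs12, 4 regions alternated in direction along the gene, at 1.04, -2.09, 1.55 and -1.20. The largest of these (chr5:34976561-34977267, intron) went from 6.84 to 4.75 and lay 1569 bp downstream of an internal Rgs12 start. The last of the 4, downstream of the gene, lay 1749 bp from the start of Dok7.

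The adenylyl cyclase genes had 3 higher regions and 1 lower region. Both directions occurred in Adcy3, where an intronic region (chr12:4198724-4199263) went from 6.48 to 7.91 and a region over a coding exon (chr12:4211114-4211502) from 7.20 to 5.10, a change of -2.10. Cenpo overlaps both and has the closer start site of the second. Adcy9 had 2 higher regions. The one in an intron (chr16:4385438-4385714) went from 2.56 to 4.73, a change of 2.17, and the one 11258 bp upstream was higher by 1.37. Both cyclases make cAMP at the plasma membrane.

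Phosphodiesterases made up the largest role, with 14 higher and 7 lower regions at 8 of 11 genes. Genes with higher regions only were Pde3b, Pde4a, Pde5a, Pde7b and Pde8a. Pde8a, a cAMP-specific enzyme of high affinity, had a region 9621 bp upstream (chr7:81203475-81203975) that went from 3.71 to 6.83, a change of 3.12 with an interval of 2.56 to 3.73. Its intronic region was higher by 1.30. Pde5a, which is specific for cGMP, had a region 9940 bp upstream (chr3:122718655-122719007) that went from 2.46 to 5.26, a change of 2.80, and an intronic region higher by 0.98.

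At Pde7b, which hydrolyses cAMP, 3 regions were higher by 1.45 to 3.16. The largest of these (chr10:20653394-20653643, intron) rested on about 4 reads in WT, with levels of 0.93 and 4.09 and an interval of 1.77 to 5.20. Its paralogue Pde7a had 2 higher regions and 1 lower. The region 8606 bp upstream of Pde7a (chr3:19319928-19320578) was strongly open in WT and went from 8.62 to 7.32, a change of -1.30. The largest change at Pde7a was 1.66 (chr3:19201254-19201715, from 4.93 to 6.59), downstream of the gene in an intron of Mtfr1, and its intronic region was higher by 1.27.

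Pde3b, whose product degrades cAMP and is inhibited by cGMP, had a broad region over its start site and coding sequence (chr7:114414911-114416505), which went from 5.83 to 6.84. The noncoding gene 4933406I18Rik overlaps the same region. Pde4a, a cAMP-specific enzyme, had intronic regions with changes of 1.13 (chr9:21168326-21168745, from 4.90 to 6.03) and 0.90. Pde10a, which accepts both cyclic nucleotides, went from 5.42 to 3.37 at a region 16800 bp upstream and from 3.05 to 5.28 at an intronic region (chr17:8646335-8646690).

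Pde4d, the long gene of a further cAMP-specific phosphodiesterase, had the most regions (6), of which 5 were lower and 1, the most proximal, was higher by 0.97. It thus held 5 of the 7 lower phosphodiesterase regions. The lower regions lay 892.6 to 1452.5 kb from the first start site, in the distal part of the gene, with changes of -1.90, -1.99, -1.85, -2.88 and -1.02 in this order. The region with the change of -2.88 (chr13:109881187-109881511, intron) went from 4.74 to 1.86, about 59 against 8 reads, with an interval of -4.16 to -1.81. The region with the change of -1.02 covered an internal start site with a start codon, 1452497 bp from the first start (chr13:109902445-109903456), and went from 7.26 to 6.24. With Pde4d and Ptger4 left out, a choice made after their values had been seen, 80.9% of the regions at the remaining genes were higher.

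Of the genes of protein kinase A, the catalytic subunits Prkaca and Prkacb had no listed region, and the regulatory subunits Prkar2b and Prkar1b went in opposite directions. The other regulatory subunits, Prkar1a and Prkar2a, are not among the 39 and had no listed region. Prkar2b, the type II beta subunit, had 5 regions, all higher. The largest change, 3.34 with an interval of 2.72 to 4.09, was in an intron (chr12:32015376-32015671), where the level went from 3.27 to 6.61. The neighbouring intronic region was already at 8.64 in WT and went to 9.26. The region over the Prkar2b start site (chr12:32060671-32061576) went from 7.88 to 8.52, a change of 0.64, and the remaining 2 intronic regions were higher by 1.27 and 1.89. Prkar1b, the type I beta subunit, had 1 region in an intron (chr5:139052992-139053514), which went from 6.69 to 3.76. This change of -2.93, with an interval of -3.53 to -2.38, was the largest fall of the 58.

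Akap13, which anchors protein kinase A, had a region over its start site (chr7:75455206-75455972) that went from 8.84 to 8.13, a change of -0.71. Downstream of the gene, in an intron of AU020206, a region (chr7:75774530-75774943) went from 4.13 to 5.94.

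The regions were then placed relative to the start sites of their genes. A start site of the gene was covered by 8 of the 58 regions, 5 higher and 3 lower, with changes from -2.83 to 1.95. Inside the gene body but away from a start lay 34 regions (26 higher, 8 lower), upstream 12 (10 higher, 2 lower) and downstream 4 (3 higher, 1 lower). By the start sites of all protein-coding genes, 8 of 58 regions lay within 1 kb (13.8%; 5 higher, 3 lower), against 14.9% of all listed regions (831 higher, 662 lower). For the higher regions, the median change was 0.91 within 1 kb and 1.53 farther away, as against 1.23 and 1.63 over all listed regions. For the lower regions, it was -1.02 within 1 kb and -1.99 farther away, as against -1.63 and -1.89. The value of -1.02 rests on 3 regions, with changes of -0.71 (Akap13), -1.02 (Pde4d) and -2.83 (Rgs3), too few for a comparison. At 9 regions the nearest coding start site belonged to another gene, so their assignment to the genes described here rests on the window. These 9 lay at Adcy3, Adora2a, Adora3, Gnaq, Pde10a, Pde7a, Prkar2b and Rgs12.

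**Figure D3:**
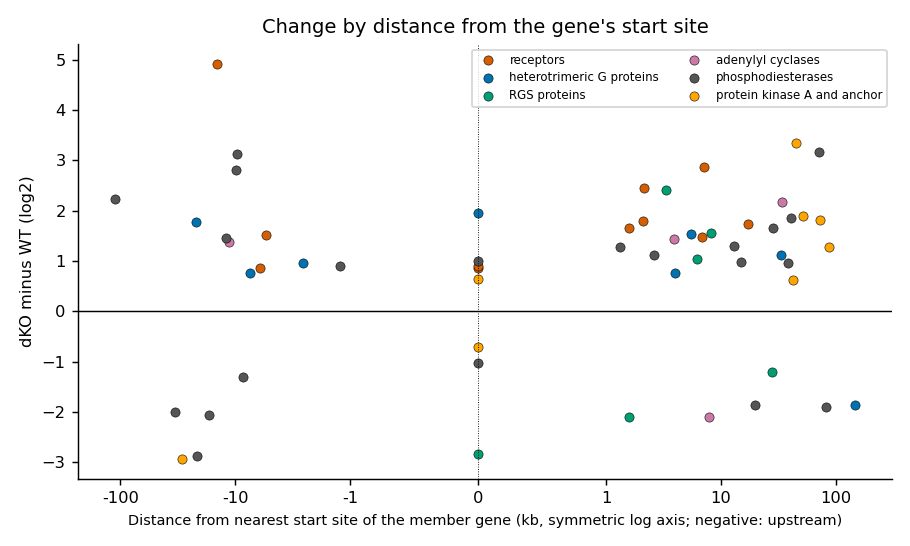
Change in accessibility (dKO minus WT, log2) against the distance of a region from the nearest start site of its own gene (kb, symmetric log axis, negative upstream), coloured by role. Of the 8 regions at 0, which cover a start site, 5 are higher and 3 are lower in dKO.

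Levels were summarised by direction, which the levels themselves define, so the medians are a description. The median WT level was 4.64 for the 44 higher and 6.59 for the 14 lower regions, and the dKO medians were 6.23 and 3.83. Over all listed regions the WT medians were 4.52 and 5.93 and the dKO medians 6.23 and 3.98. The median width was 393 bp (400 bp over all listed regions), and the median GC content of the central 200 bp was 51.3% (50% over all listed regions).

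Motif letters were counted in the central 200 bp. The C/EBP letters occurred in 5 of the 14 lower regions (35.7%) and in 9 of the 44 higher regions (20.5%), against 40.8% and 20.1% over all listed regions. The AP-1 letters occurred in 8 higher regions (18.2%) and in no lower region, against 26.7% and 4.67%. The shares for RUNX were 18.2% and 14.3%, against 13.8% and 9.04%, and for PU.1 9.09% and 0%, against 13.1% and 3.34%. With 14 lower regions, 1 region more or less moves a share by several percentage points, and no difference from the other listed regions was tested. The cAMP response element (TGACGTCA), the motif of CREB, a transcription factor that protein kinase A activates, occurred in 0 of the 58 regions and in 0.459% of all listed regions. It was also absent from the RefSeq promoters (250 bp before to 50 bp after the start) of the 31 member genes that matched by symbol, and present in 2.03% of all genes. No motif of the 5 was found in 30 of the 58 regions (23 higher, 7 lower). The same share over all listed regions is not given here, so this count is no result about these genes.

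**Figure D4:**
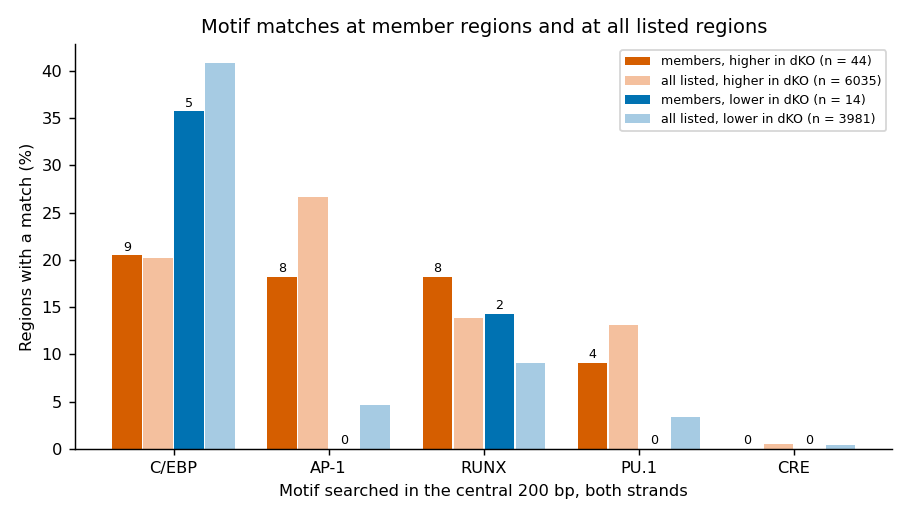
Share of regions (%) with a motif match in the central 200 bp on either strand, for the 44 higher and 14 lower regions at the genes described here and for all listed regions of the same direction. Numbers above bars count the matching regions at these genes, and CRE is the cAMP response element.

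Chromosome 10 held 7 of the 58 regions, at Adora2a, Gna15 and Pde7b, and all 7 were higher in dKO. On that chromosome 82.0% of all listed regions were higher, against 58.4% elsewhere. Outside chromosome 10, 37 of 51 regions at these genes were higher (72.5%).

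Other genes of the same pathway were counted by the same windows. Of 148 such genes, 79 had a listed region (53.4%): 41 had higher regions only, 30 lower only and 8 both. Over all protein-coding genes, 34.9% had a listed region, of which 4079 had higher regions only, 2702 lower only and 882 both. The median gene body was 39.2 kb in the list and 17.4 kb over all protein-coding genes, and the part of length was not tested here either. For RGS proteins outside the 39 genes, 1 of 12 had higher regions only and 4 had lower only. The other phosphodiesterase genes had 2 higher and 6 lower regions. Taking the 6 families whole, with each region counted once, 91 of 145 regions were higher (62.8%), close to the 60.3% of all listed regions, and the median change was 0.91. By family, the share of higher regions, the 39 genes included, was 30.8% of 13 for RGS proteins, 55.2% of 29 for phosphodiesterases, 64.5% of 31 for G proteins, 66.7% of 21 for protein kinase A and its anchors, 72.5% of 40 for receptors and 72.7% of 11 for adenylyl cyclases. Outside the 39 genes, 47 of 87 regions of these families were higher (54.0%). The receptors outside the 39 genes had 18 higher and 11 lower regions, so receptor genes as a family went both ways.

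Genes of the wider list with 3 or more regions in 1 direction and none in the other included Adcy2, Akap7, S1pr2, Gng11, Gngt1, Rapgef4 and Sik1 (higher) and Rapgef3 (lower). Adcy2, an adenylyl cyclase that G-protein beta-gamma subunits stimulate, had 4 regions with changes of 2.74 to 3.82, at WT levels of 3.12 to 3.90 and dKO levels of 5.86 to 7.70. The cAMP-activated exchange factors for Rap1 went in opposite directions. Rapgef3 had 3 lower regions with changes of -1.98, -1.71 and -1.55, and Rapgef4 had 3 higher regions with changes of 2.44, 0.81 and 0.88. Sik1, a kinase that restrains the coactivators of CREB, had 3 higher regions with changes of 0.98, 1.64 and 3.46. The last of these had a WT level of 1.20, under the level of 3 reads per library (1.43), and a dKO level of 4.66, so its size is uncertain. S1pr2, a receptor for sphingosine-1-phosphate, had changes of 0.87 to 1.29, and Akap7, an anchor of protein kinase A, had changes of 0.91 to 1.69. Gng11 and Gngt1 are neighbours, and their windows share regions.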

How the data were processed

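ATAC-seq had been performed on 6 samples in 3 groups of 2. Per the submitters' processing notes and the methods, reads averaging 25000000 per sample went through PiGx, with Bowtie2 alignment (mm10), MACS2 peak calls and DiffBind 2.14.0 for the differences. Duplicate removal and the Tn5 offset were not given in the sources used here, and kept duplicates could inflate reads. The authors' deposited table holds log2 means of normalised reads per group, their log2 fold change (WT minus dKO), p-value and FDR. Only the group means were used; the fold change and p-value columns are the authors' own comparison and were not used, beyond checking the sign of the fold change and that no row exceeds an FDR of 0.05. Both files were identical, so 1 table of 10016 rows with WT and dKO was analysed, and dKO-LAP* was not.

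The planned description without a test was kept, since no value per library was given. Windows came from GENCODE M21 gene bodies and start sites of all their transcripts. Depth per library is unknown. Other genes of the pathway (148) and markers came from lists; of the former, genes with at least 3 regions in 1 direction and none in the other are named, except 1 that is not reported here. The lowest level, -0.15 in both groups, was taken as 1 read in each library. The ratio between the worth of a read in the libraries of a group was then varied from 1 to 2. At the best ratio (1.23 in WT, 1.02 in dKO), 100% of levels up to 3 normalised reads (267 in WT, 281 in dKO) lay within 0.01 of whole-read steps. The medians over the ratios tried were 35.2% and 61.2%. The best ratio was chosen for its fit, and the reads given here treat the libraries of a group as equal. Reads behind a mean are therefore approximate. Regions with the lower group at or under 3 reads per library (2 of 58) were marked as low. The members and gene lists were chosen with earlier results of these data known. All 25 genes with a region are named; regions at start sites, the largest change per gene and low regions are given in full. Python 3.11.15, pandas 2.3.3, scipy 1.17.1 and pysam 0.24.0 were used, and window assignment and motif search were tested on simulated data.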

Additional observations from a re-analysis of the deposited data

How the results depend on the processing

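Windows of 10 kb, the gene body only, the nearest coding start site, a minimum mean level, the removal of low regions and the removal of chromosome 10 (the last chosen after seeing the data) left 42 to 56 regions, 72.5% to 77.6% of them higher, and a median change of 1.03 to 1.13. Over all listed regions, the minimum level gave 62.5% higher and a median of 0.96. The removal of low regions gave 60.9% and 0.99 there, and the removal of chromosome 10 gave 58.4% and 0.95. Adding 1 normalised read to each mean gave a median of 1.17. Leaving out Pde4d and Ptger4, also chosen after seeing the data, gave 80.9% and 1.37. Subtracting the median change of all listed regions (0.98) gave 56.9% higher, a median of 0.22, and 24 regions changed at least 2-fold, of which 10 were higher. This shift acts on all listed regions alike, and their counts at this size after it are not given here. A central window of 100 bp left 17 regions with a motif match in place of 28, and the whole region gave 36. These counts are given without those over all listed regions. Windows of 10 kb gave 62 genes of the wider list with a region in place of 79, and the share over all protein-coding genes with this window is not given here. No paired analysis was possible because only means over the libraries of a group were given, and neither a replicate block nor the omission of a replicate could be run. Depth limits the changes at Adora2a and Pde7b, where the WT mean of 1 region each rested on about 3 and 4 reads.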
